A study of Homo sapiens with 519 samples.

Results

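The osajin family isoflavones were 4 compounds, H-Osajin (12O), Osajin (13O), Isoosajin and Osajin 4 Methyl ether, each given to SK-N-BE(2) cells for 24 h in 3 wells. They were chosen by compound name and make up 12 of the 96 libraries of the experiment they belong to and 12 of the 519 libraries of the series. SK-N-BE(2) is an established human neuroblastoma line with amplified MYCN, and the study profiled its transcriptional response to panels of compounds in plate format. H-Osajin (12O) and Osajin (13O) were given at a dose of 10, Isoosajin and Osajin 4 Methyl ether at a dose of 20, and H-Pomiferin (12P) and Pomiferin, used here as partners at equal dose, at a dose of 10. The labels give no unit for these doses. The vehicle wells, 9 in number, received DMSO at 0.1%, and all groups shared the cell line, the plate format and the exposure time. Each library is the RNA of 1 well of a 96-well plate, read by PLATE-seq, a method that barcodes each well and sequences pooled 3' ends. The wells are replicates of treatment within 1 cell line, so p-values measure the spread between wells.

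Osajin and pomiferin are prenylated isoflavones of the fruit of Osage orange, and pomiferin differs from osajin by an additional hydroxyl on its B ring, which makes that ring a catechol. Isoosajin is, by its name, an isomer of osajin, and Osajin 4 Methyl ether is, by its name, osajin with a methylated oxygen. No structural statement is made for H-Osajin (12O) and H-Pomiferin (12P), which the labels name without a structure. Dose differed between the pairs, so values of compounds given at 10 and at 20 stand side by side without a comparison.

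The responses described below are known programmes of stressed cells. In the integrated stress response, phosphorylation of the initiation factor eIF2 lowers general translation and favours that of ATF4, a transcription factor that turns on amino acid synthesis and transport genes and DDIT3, the pro-death factor CHOP. In the unfolded protein response, the sensors PERK, IRE1 and ATF6 of the endoplasmic reticulum raise its chaperones, among them HSPA5 (BiP). NRF2 drives antioxidant genes such as HMOX1, heme oxygenase, and HSF1 drives cytosolic chaperones when proteins in the cytosol misfold. PCNA, the sliding clamp of DNA polymerases, marks cells that replicate DNA.

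Libraries held 3507289 to 4233229 counts with H-Osajin, 1573316 to 2435952 with Osajin, 1909091 to 4481636 with Isoosajin, 3159049 to 5048294 with the methyl ether and 2775143 to 5263249 with DMSO. All Osajin libraries were smaller than all DMSO libraries, and fewer cells and less RNA per cell cannot be told apart in such totals. Levels are given throughout as CPM, counts relative to the library total after TMM scaling, which corrects for a few genes taking a large share of the reads. In DMSO wells MYCN was at 540 ± 192 CPM, GATA3 at 203 ± 31.5 and ISL1 at 50.7 ± 8.61 (SD, n = 9), and DBH was detected at 2.03 ± 1.25 CPM. Of markers of other cell types, COL1A1 gave most counts. The summed level of these markers was 233 to 284 CPM with H-Osajin, 104 to 130 with Osajin, 212 to 288 with Isoosajin, 260 to 288 with the methyl ether and 226 to 344 with DMSO, and HBB had 0 counts in these libraries.

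Across 15596 tested genes, the number of genes called against DMSO ranged from 26 with the methyl ether to 3671 with Osajin at the doses given. Osajin at 10 changed 3671 genes at an adjusted p under 0.05 (edgeR quasi-likelihood test, Benjamini-Hochberg), of which 1791 were higher (11.5% of tested genes) and 1880 lower (12.1%). Isoosajin at 20 changed 570, with 418 higher (2.68%) and 152 lower (0.975%). H-Osajin at 10 changed 49, with 43 higher (0.276%) and 6 lower (0.0385%), and the methyl ether at 20 changed 26, all higher (0.167% higher and 0% lower). Without H-Osajin replicate 1, and likewise without its replicate 3, 32 genes were called for H-Osajin, and without Isoosajin replicate 2, 353 were called for Isoosajin. At an unadjusted p under 0.05 the counts were 1156 genes for H-Osajin, 5255 for Osajin, 2166 for Isoosajin and 700 for the methyl ether.

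**Figure D1:**
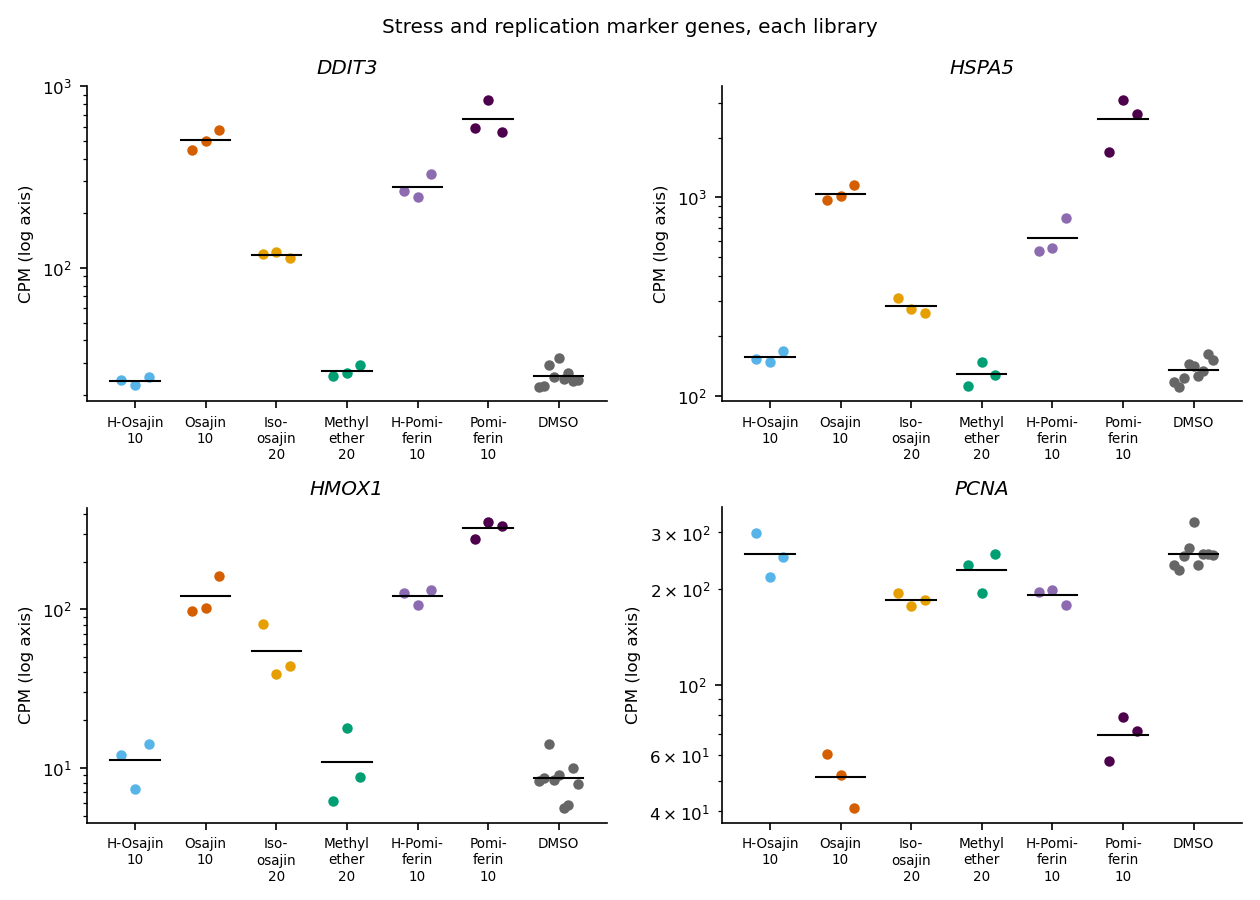
CPM (log axis) of DDIT3, HSPA5, HMOX1 and PCNA in every library of 6 compound groups (dose under the name) and of DMSO; points are wells and lines are group means. Osajin wells stand at 445 to 579 CPM for DDIT3 and Isoosajin wells at 114 to 122, both above the DMSO wells (22.2 to 32.1), while H-Osajin (22.8 to 25.1) and methyl ether wells (25.4 to 29.3) lie within or near the DMSO range.

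Osajin raised genes of the integrated stress response and of the endoplasmic reticulum, and lowered DNA replication, tubulin, ribosomal protein and neuronal identity genes. DDIT3 stood at 445, 502 and 579 CPM in the Osajin wells, against 22.2, 24.4 and 32.1 CPM as the lowest, median and highest DMSO well. The groups do not overlap, and the log2 change was 4.31 ± 0.19 (SE; edgeR adjusted p = 4.77e-31). Of 33 tested ATF4 list members, 29 rose and 0 fell with Osajin, with a median log2 change of 1.99 beside −0.01 for all tested genes. The 4 that did not pass were PSPH, PYCR1, JDP2 and CBS.

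Several secreted and regulatory factors of the list rose by more than DDIT3. GDF15, a stress cytokine that lowers appetite, was at 60.5, 58.6 and 119 CPM in Osajin wells, against 0, 1.06 and 1.83 as the DMSO lowest, median and highest (log2 change 6.10 ± 0.48, adjusted p = 2.2e-17). NUPR1, a stress-inducible chromatin regulator, was at 169, 132 and 115 CPM in Osajin wells, against 1.11, 1.4 and 9 in DMSO wells. TRIB3, a pseudokinase that feeds back on ATF4, was at 93.8, 61.3 and 94 CPM with Osajin, against 0.329, 1.87 and 5.55 with DMSO. None of these groups overlap, but large rises were named only where the groups were separate. With Osajin, 19.4% of all tested genes were separate from DMSO. INHBE, an activin subunit, rose by 5.12 ± 0.50 on the log2 scale (adjusted p = 2.49e-13), and SESN2, an inhibitor of mTORC1 under amino acid shortage, by 4.45 ± 0.29 (adjusted p = 4.9e-21). Outside the list, ADM2, an adrenomedullin family peptide, was at 139, 131 and 150 CPM in Osajin wells and at 0.7, 1.95 and 3.64 as the lowest, median and highest of DMSO (log2 change 5.90 ± 0.27, adjusted p = 9.24e-30).

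Some of the largest fitted rises were uneven between wells. KLHDC7B was at 21.4, 25.1 and 54.2 CPM in Osajin wells, while the DMSO median was 0 and the highest DMSO well 0.657. FAM184B was at 247, 38.5 and 84.6 CPM with Osajin, against 0, 0.203 and 1.56 with DMSO. ARRDC3, an arrestin-domain adaptor, was at 26.2, 23.6 and 389 CPM with Osajin, against 5.04, 6.34 and 7.88 with DMSO, so its mean of 146 CPM is carried by 1 well. Among the 1791 genes that were higher with Osajin, 88 had 1 well holding over 75% of the sum of the 3.

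In the unfolded protein response list, 23 of 25 tested members rose with Osajin and 0 fell, with a median log2 change of 1.59; HYOU1 and ERN1 did not pass. HSPA5 was at 973, 1010 and 1150 CPM in Osajin wells, against 111, 134 and 162 as the lowest, median and highest DMSO well. The groups do not overlap (log2 change 2.96 ± 0.16, adjusted p = 6.82e-26). HERPUD1, which helps clear misfolded proteins from the endoplasmic reticulum, was at 206, 219 and 229 CPM with Osajin, against 13, 18.1 and 20.7 with DMSO. PPP1R15A (GADD34), the phosphatase subunit that reverses eIF2 phosphorylation, was at 222, 312 and 340 CPM with Osajin, against 10.5, 13.4 and 21.1 with DMSO (log2 change 4.36 ± 0.23, adjusted p = 6.82e-26). The chaperone HSPA5 and the phosphatase subunit PPP1R15A were thus higher in all 3 Osajin wells than in all DMSO wells.

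Because the chaperone genes rose together, their promoters were read for the endoplasmic reticulum stress element, the letters CCAAT and CCACG with 9 bases between them, which NF-Y and ATF6 bind. The 250 bases before each RefSeq gene start of GRCh38.p14 were searched on both strands. This element was found in 22 of 27305 promoters (0.0806%), in 6 of the 23 unfolded protein response promoters that matched the table (26.1%) and in 0 of 25 promoters of the ATF4 list. All 6 genes were higher with Osajin, as were 23 of the 25 tested list members. With Isoosajin 3 of them, HSPA5, CANX and XBP1, were higher, beside 10 of the 25. Promoter letters do not depend on treatment, so the shares describe how the lists were made up and not the response. CANX and CALR are lectin chaperones, HSP90B1 is the HSP90 of the endoplasmic reticulum, CRELD2 is a disulfide isomerase and XBP1 is the transcription factor that IRE1 activates by splicing. They are shown on the gene's strand with the element in capitals, and those written as CGTGG and ending in ATTGG are on the opposite strand. HSPA5 is at chr9:125241376-125241424 (minus), HSP90B1 at chr12:103930201-103930354 (plus, with 2 elements), CALR at chr19:12938369-12938417 (plus), CANX at chr5:179698763-179698811 (plus), CRELD2 at chr22:49918539-49918587 (plus) and XBP1 at chr22:28800588-28800636 (minus).
HSPA5: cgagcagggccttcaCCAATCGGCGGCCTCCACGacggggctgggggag
HSP90B1: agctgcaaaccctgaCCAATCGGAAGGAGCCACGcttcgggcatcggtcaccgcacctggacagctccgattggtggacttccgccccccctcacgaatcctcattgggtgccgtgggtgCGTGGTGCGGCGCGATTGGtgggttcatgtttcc
CALR: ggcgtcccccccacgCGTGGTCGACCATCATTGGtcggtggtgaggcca
CANX: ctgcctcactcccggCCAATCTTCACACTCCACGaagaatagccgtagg
CRELD2: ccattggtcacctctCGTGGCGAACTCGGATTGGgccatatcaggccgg
XBP1: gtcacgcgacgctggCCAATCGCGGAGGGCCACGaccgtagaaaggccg

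The ATF4 list was read for TGATGNAA, the core of the composite element bound by C/EBP and ATF4 dimers. It was found in 3 of 25 matched ATF4 promoters (12%), those of ATF3, ASNS and FGF21, and in 870 of all 27305 (3.19%). ASNS encodes asparagine synthetase, the classical amino acid response gene, and its stretch at chr7:97872454-97872491 (minus strand) is shown with the element in capitals. A match describes letters and is no measurement of binding.
ASNS: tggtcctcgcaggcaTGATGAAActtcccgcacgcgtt

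NRF2 list members moved in both directions with Osajin, 12 of 22 up and 2, TXN and PRDX1, down, with a median log2 change of 0.52. HMOX1 was at 97.5, 102 and 162 CPM in Osajin wells, against 5.55, 8.4 and 14.2 as the lowest, median and highest DMSO well (log2 change 3.80 ± 0.31, adjusted p = 6.66e-17). SLC7A11, the cystine transporter and also an ATF4 target, rose by 4.31 ± 0.38 (adjusted p = 4.31e-15), and AKR1B1, an aldehyde reductase, by 2.00 ± 0.15 (adjusted p = 4.83e-18). Of 17 heat shock list members, 3 rose and 8 fell, with a median of −0.39. The fallen ones included the mitochondrial chaperonins. HSPE1 was at 385, 491 and 308 CPM with Osajin and at 1350, 1440 and 1580 as the DMSO lowest, median and highest (log2 change −1.90 ± 0.16, adjusted p = 4.38e-16), and its partner HSPD1 changed by −0.80 ± 0.10 (adjusted p = 1.92e-09).

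Immediate early and MAPK feedback genes rose in 15 of 21 cases with Osajin and ETV4 fell, with a median of 1.31. FOSL1, an AP-1 subunit, was at 50.2, 68.5 and 66.3 CPM with Osajin, against 4.02, 4.6 and 8.71 with DMSO. Lysosome and autophagy genes rose in 11 of 22 cases and fell in 0 (median 0.91). MAP1LC3B, the autophagosome protein LC3B, was at 185, 195 and 261 CPM with Osajin, against 19, 33.8 and 47 with DMSO (log2 change 2.64 ± 0.20, adjusted p = 3.26e-18). CTSL, a lysosomal protease, rose by 2.41 ± 0.22 (adjusted p = 2.77e-14), and NEU1, a lysosomal sialidase, by 2.32 ± 0.20 (adjusted p = 9.91e-16). The list of p53 targets gave 5 of 20 up and 1 down. CDKN1A, the inhibitor p21, was at 80.5, 83.4 and 112 CPM with Osajin, against 2.33, 3.89 and 5.5 with DMSO, and TP53I3 was at 39.9, 27 and 39.8 CPM with Osajin, against 64.1, 78 and 98.7 with DMSO. CDKN1A thus rose (4.52 ± 0.37, adjusted p = 7.14e-17) while TP53I3 fell (−1.18 ± 0.16, adjusted p = 1.95e-08) in the same wells. Of the BCL2 family, the pro-death BH3 genes HRK (3.68 ± 0.54, adjusted p = 1.07e-07) and PMAIP1 (1.56 ± 0.36, adjusted p = 0.000599) rose, and BID fell (−1.95 ± 0.23, adjusted p = 2.91e-10).

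DNA replication genes fell with Osajin in 19 of 25 tested S phase members, with 0 higher and a median of −1.46. PCNA was at 60.5, 52.2 and 40.9 CPM with Osajin, against 229, 255 and 324 as the lowest, median and highest DMSO well, with no overlap (log2 change −2.33 ± 0.24, adjusted p = 8.69e-13). MCM3, a subunit of the replicative helicase, changed by −1.51 ± 0.14 (adjusted p = 2.77e-14). In G2 and mitosis, 13 of 26 members fell and 0 rose (median −0.76). Among them were CDK1, the mitotic kinase (−1.41 ± 0.16, adjusted p = 2.84e-11), and CCNB2, its cyclin partner (−1.33 ± 0.18, adjusted p = 1.49e-08).

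MYCN, the amplified oncogene of the line, was at 109, 158 and 91.2 CPM with Osajin, against 341, 478 and 814 as the DMSO lowest, median and highest (log2 change −2.18 ± 0.41, adjusted p = 1.86e-05). MYC targets and ribosome biogenesis genes fell in 14 of 26 cases and rose in 1 (median −0.65), among them NOP56, a box C/D snoRNP core protein (−1.16 ± 0.13, adjusted p = 5.96e-11), and NCL, nucleolin (−1.10 ± 0.21, adjusted p = 1.81e-05). Ribosomal protein genes fell in 16 of 25 cases (median −0.38), nuclear-encoded respiratory chain genes in 13 of 26 (median −0.41) and genes of mitochondrial DNA in 8 of 13 (median −0.31), with 0 rises in each. With size factors in place of TMM, 1 mitochondrial gene rose and 6 fell. Adrenergic identity genes fell in 11 of 20 cases and rose in 0 (median −1.12). CHGA, chromogranin A of secretory granules, was at 171, 180 and 129 CPM with Osajin and at 380, 504 and 593 with DMSO, and PHOX2A, a sympathetic lineage factor, was at 18.1, 28.9 and 8.29 CPM with Osajin, against 63.1, 82.2 and 116 with DMSO.

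Tubulins fell in 5 of 11 cases with Osajin. Neuronal TUBB3 was at 155, 133 and 130 CPM with Osajin, against 394, 458 and 581 with DMSO (log2 change −1.73 ± 0.16, adjusted p = 1.05e-14). Fatty acid synthesis genes fell in 6 of 12 cases and 1 rose, with FASN, the synthase itself, at −1.68 ± 0.18 (adjusted p = 4.83e-12) and SCD, the desaturase, at −1.12 ± 0.17 (adjusted p = 1.33e-07). Of 24 sterol genes 4 fell, a share near that of all tested genes, among them ACAT2 (−1.85 ± 0.26, adjusted p = 2.76e-08). Among the largest falls outside these lists were SLC29A1, the nucleoside transporter ENT1, at 13.7, 17.9 and 11.6 CPM with Osajin and 111, 124 and 141 with DMSO, and NNAT, neuronatin, at 32.9, 39.6 and 22.1 CPM with Osajin and 221, 261 and 350 with DMSO. ELN, elastin, fell by 2.79 ± 0.23 on the log2 scale (adjusted p = 7.72e-17). Of 7 tested markers of other cell types, 3 were lower with Osajin and 0 higher, while 2 had positive changes that did not pass. Those lower were the fibroblast markers COL1A1, LUM and DCN, with COL1A1 at 91.2, 99 and 82.3 CPM, against 192, 225 and 295 with DMSO. Their part in the other falls was not tested. Reads of tubulins, ribosomal protein genes and NPM1 can be shared with near-identical copies or pseudogenes, so single values of these genes are uncertain.

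Of the subunits of the kinase CK2, 1 passed with Osajin. The catalytic subunit CSNK2A2 was at 38.4, 56.7 and 60.8 CPM with Osajin, against 33.4 ± 4.96 with DMSO (SD, n = 9), with overlapping groups (log2 change 0.63 ± 0.22, adjusted p = 0.0295). This call was lost without Osajin replicate 2 (0.56, adjusted p = 0.132) or 3 (0.51, adjusted p = 0.193) and without 1 of the DMSO wells (0.59, adjusted p = 0.05), and without the low-count filter (0.62, adjusted p = 0.132). With replicate number as a block it was lost too (0.61, adjusted p = 0.0781). CSNK2A1, the other catalytic subunit, was at 70.9, 64.7 and 68 CPM with Osajin, above all DMSO wells (46.2 to 59.5). It did not pass (0.34 ± 0.21, adjusted p = 0.249), except with the compared groups alone (0.36, adjusted p = 0.0435). CSNK2B did not pass (0.13 ± 0.17, adjusted p = 0.651). None of the 3 subunits passed with H-Osajin, Isoosajin or the methyl ether, or in any of the 4 pairs at equal dose.

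**Figure D2:**
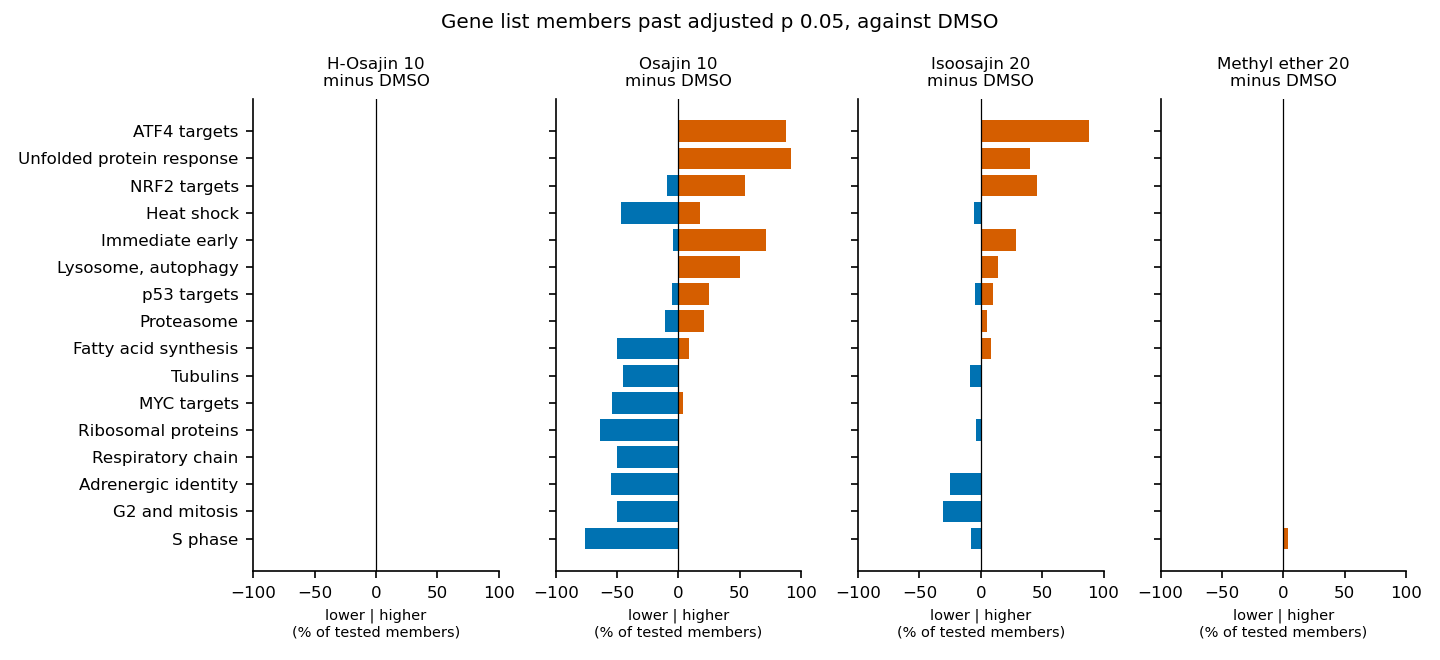
Share of tested members of 16 gene lists that passed an adjusted p of 0.05 against DMSO, higher to the right and lower to the left, 1 panel per compound. With H-Osajin the panel is empty, with Osajin and Isoosajin 29 of 33 ATF4 list members are higher, and with the methyl ether 1 of 25 S phase members is higher.

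Isoosajin at 20 raised most of the ATF4 list, with 29 of 33 tested members up, 0 down and a median log2 change of 1.86. DDIT3 was at 119, 122 and 114 CPM in the Isoosajin wells, against 22.2, 24.4 and 32.1 as the lowest, median and highest DMSO well (log2 change 2.2 ± 0.19, adjusted p = 2.86e-15). ADM2 was at 65.1, 74.9 and 59.1 CPM with Isoosajin, against 0.7, 1.95 and 3.64 with DMSO, and NUPR1 at 74.5, 57.6 and 54.3 CPM with Isoosajin, against 1.11, 1.4 and 9 with DMSO. All these groups are separate, as were those of 5.68% of all tested genes, from which ADM2 and NUPR1 were named as large rises. Amino acid synthesis genes rose as well. ASNS was at 422, 379 and 386 CPM with Isoosajin and at 48.7, 58.1 and 84.5 with DMSO (log2 change 2.67 ± 0.16, adjusted p = 1.46e-22), and PSAT1, of serine synthesis, at 889, 745 and 958 CPM with Isoosajin, against 215, 229 and 336 with DMSO (1.81 ± 0.12, adjusted p = 1.03e-19). STC2, a secreted glycoprotein, rose by 2.85 ± 0.18 (adjusted p = 8.13e-22) and SESN2 by 3.70 ± 0.29 (adjusted p = 1.15e-16).

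Of the unfolded protein response list, 10 of 25 members rose with Isoosajin and 0 fell, with a median of 0.61 beside −0.03 for all genes. HSPA5 was at 311, 274 and 261 CPM with Isoosajin, against 111, 134 and 162 with DMSO (log2 change 1.07 ± 0.17, adjusted p = 2.22e-06). XBP1 was at 121, 119 and 119 CPM with Isoosajin and at 26.3, 36 and 44.8 with DMSO, and HERPUD1 rose by 2.24 ± 0.25 (adjusted p = 7e-11). NRF2 list members rose in 10 of 22 cases and fell in 0 (median 0.51). HMOX1 was at 80.8, 39.2 and 43.7 CPM with Isoosajin, against 5.55, 8.4 and 14.2 with DMSO, and FTH1, the ferritin heavy chain, at 2380, 2490 and 2750 CPM with Isoosajin, against 1150, 1350 and 1640 with DMSO (0.90 ± 0.10, adjusted p = 1.58e-10). Side by side and at different doses, DDIT3 averaged 508 CPM with Osajin and 118 CPM with Isoosajin, HSPA5 1045 CPM with Osajin and 282 CPM with Isoosajin, and ADM2 140 CPM with Osajin and 66.4 CPM with Isoosajin.

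PCNA was at 194, 176 and 184 CPM with Isoosajin, below all DMSO wells (lowest 229, median 255, highest 324), and the change of −0.48 ± 0.21 did not pass (adjusted p = 0.244), though it passed with the compared groups alone (−0.46, adjusted p = 0.0302). Of 25 S phase members 2 fell with Isoosajin, MCM3 among them, while 8 of 26 G2 and mitosis members fell and 0 rose (median −0.67). TOP2A, the topoisomerase that untangles chromosomes, was at 149, 119 and 119 CPM with Isoosajin, against 246, 322 and 426 with DMSO (log2 change −1.32 ± 0.26, adjusted p = 0.000423). The call of CDK1 (−0.67 ± 0.15, adjusted p = 0.0019) was lost without Isoosajin replicate 2 (−0.56, adjusted p = 0.0742) and without the low-count filter (−0.66, adjusted p = 0.13). With replicate number as a block it was lost too (−0.66, adjusted p = 0.0861). MYCN was at 706, 641 and 747 CPM with Isoosajin, within the DMSO range of 341 to 814 (0.37 ± 0.34, adjusted p = 0.722).

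Adrenergic identity genes fell in 5 of 20 cases with Isoosajin. HAND1 was at 70.7, 63 and 102 CPM with Isoosajin, against 131, 150 and 213 with DMSO. GATA3 (−0.53 ± 0.14, adjusted p = 0.0135) lost its call without Isoosajin replicate 2 (−0.53, adjusted p = 0.0762) or 3 (−0.47, adjusted p = 0.133), and with all wells kept but no low-count filter (−0.52, adjusted p = 0.296) or the compared groups alone (−0.51, adjusted p = 0.0797). The replicate block lost it as well (−0.54, adjusted p = 0.227). Among the other large changes, SCRG1 was at 50.8, 55.1 and 75.8 CPM with Isoosajin, against 4.02, 6.9 and 7.93 with DMSO. CLU, clusterin, was at 33.8, 29.8 and 36.6 CPM with Isoosajin, against 66, 81.8 and 89.5 with DMSO, and TAGLN, an actin-binding protein, at 15.5, 15.4 and 3.45 CPM with Isoosajin, against 44.2, 51.1 and 79.9 with DMSO. ERBB3, a receptor tyrosine kinase, was at 13.8, 11.4 and 93.6 CPM with Isoosajin and at 1.83, 3.61 and 8.63 with DMSO, and its call (3.20 ± 0.67, adjusted p = 0.000868) was lost without Isoosajin replicate 3 (1.55, adjusted p = 0.434).

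**Figure D3:**
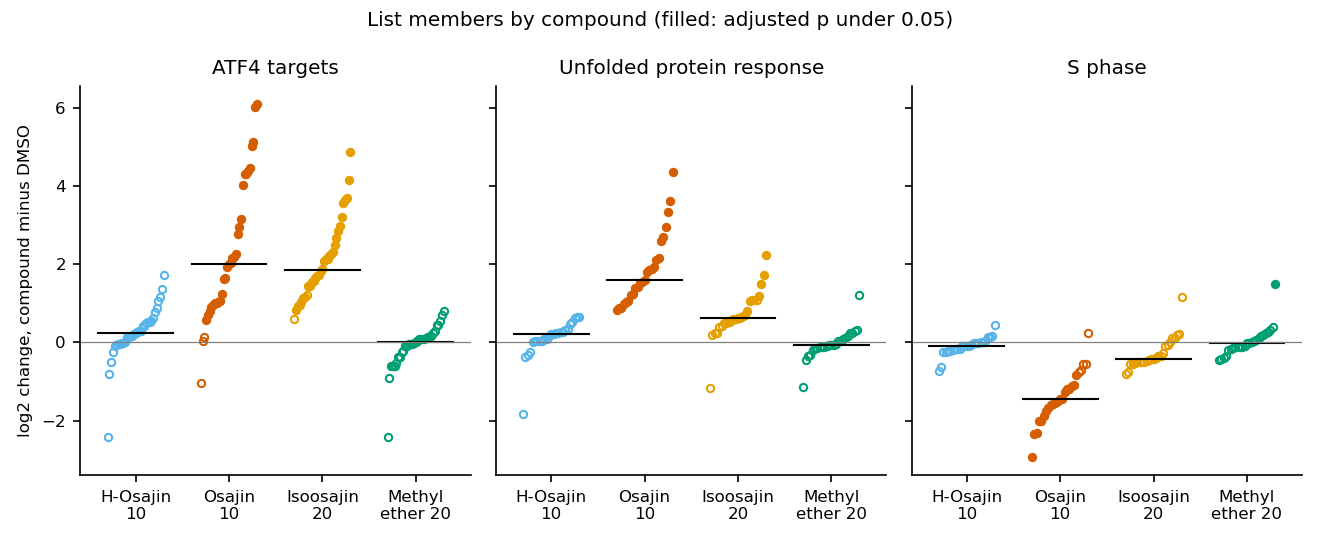
Log2 change against DMSO of each tested member of the ATF4, unfolded protein response and S phase lists (33, 25 and 25 genes) for the 4 compounds; filled points passed an adjusted p of 0.05 and black lines are list medians. ATF4 medians are 1.99 with Osajin and 1.86 with Isoosajin, and S phase medians are −1.46 with Osajin and −0.43 with Isoosajin, with H-Osajin and methyl ether members mostly open and near 0.

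With H-Osajin at 10, none of the 4 marker genes left the DMSO range by a margin that passed. DDIT3 was at 24.2, 22.8 and 25.1 CPM with H-Osajin, against 22.2, 24.4 and 32.1 as the DMSO lowest, median and highest (log2 change −0.09, 95% interval −0.51 to 0.33, adjusted p = 0.987). HSPA5 was at 153, 148 and 169 CPM with H-Osajin and at 111, 134 and 162 with DMSO (0.22, interval −0.12 to 0.56), and PCNA at 299, 218 and 251 CPM with H-Osajin, against 229, 255 and 324 with DMSO (−0.01, interval −0.41 to 0.39). HMOX1 was at 12, 7.4 and 14.1 CPM with H-Osajin, against 5.55, 8.4 and 14.2 with DMSO (0.37, interval −0.33 to 1.08). MYCN did not pass either (0.06, interval −0.64 to 0.76, adjusted p = 0.998). The ATF4, unfolded protein response, NRF2, heat shock, S phase, mitosis and adrenergic lists each had 0 members past the threshold. Immediate early genes had 0 past it as well, but 19 of 21 had positive changes (median 0.51 beside −0.03 for all genes). Of them, 8 had an unadjusted p under 0.05 (edgeR quasi-likelihood test). For 17 of 33 ATF4 members and 17 of 25 unfolded protein response members, the 95% interval lay within 1 log2 unit of no change, as it did for 23 of 25 S phase and 23 of 26 mitosis members. For the remaining members the interval reached beyond 1 log2 unit in at least 1 direction. The upper limit was below 1 for 20 of the 33 ATF4 members and 19 of the 25 unfolded protein response members.

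A small set of other genes did rise with H-Osajin. TNFRSF12A, the TWEAK receptor, was at 52.5, 50.7 and 72.9 CPM with H-Osajin, against 15.7, 19.8 and 35.2 with DMSO (log2 change 1.39 ± 0.25, adjusted p = 0.000685), and ITGAV, the integrin alpha V chain, at 36, 29.6 and 40.3 CPM with H-Osajin, against 5.29, 8.22 and 16.3 with DMSO (1.91 ± 0.38, adjusted p = 0.00278). These groups do not overlap, which their naming as large rises required, and 2.1% of all tested genes were separate. Both calls held with each well left out in turn. That of TNFRSF12A was lost with replicate number as a block (1.44, adjusted p = 0.34). LGALS3, galectin-3, was at 59.4, 29.3 and 31.5 CPM with H-Osajin, against 7.23, 11.4 and 19.1 with DMSO (1.76 ± 0.35, adjusted p = 0.00278), and lost its call without H-Osajin replicate 1 (1.36, adjusted p = 0.222). ANXA5 (0.62 ± 0.13, adjusted p = 0.00758) and CDH2, N-cadherin (0.73 ± 0.16, adjusted p = 0.0163), were each higher in 3 of 3 wells than in all DMSO wells, as their naming required. ANXA5 lost its call without H-Osajin replicate 1 or 3 (adjusted p = 0.0753 and 0.127), and CDH2 without any of replicates 1, 2 and 3 (adjusted p = 0.0563, 0.093 and 0.141). Both calls were lost without the low-count filter (adjusted p = 0.1 for ANXA5 and 0.17 for CDH2), and that of CDH2 also with the compared groups alone (adjusted p = 0.195).

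Of the 6 genes lower with H-Osajin, IGFBP4, a secreted binding protein of insulin-like growth factors, was at 89.4, 64.6 and 82.8 CPM with H-Osajin, against 126, 175 and 194 as the lowest, median and highest of DMSO (−1.02 ± 0.24, adjusted p = 0.0273). It was named after its values were seen, and its call was lost without any of H-Osajin replicates 1, 2 and 3 (adjusted p = 0.0799, 0.286 and 0.13) and without DMSO replicate 1 (adjusted p = 0.0504). Of the 43 higher genes, 19 had 1 well with over 75% of the sum of the 3. TRIM24, a chromatin reader, is an instance of unequal wells, at 103, 284 and 101 CPM with H-Osajin against 48.8, 59.3 and 80.5 with DMSO, and without replicate 2 its change was 0.71 (adjusted p = 0.839).

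With the methyl ether at 20, none of the genes called had all 3 treated wells apart from the DMSO wells, and few of all tested genes did. DDIT3 was at 25.4, 26.5 and 29.3 CPM with the methyl ether, within the DMSO range of 22.2 to 32.1 (log2 change 0.08, 95% interval −0.34 to 0.49), and HSPA5 at 112, 149 and 127 CPM with the methyl ether, against 111 to 162 with DMSO (−0.06, interval −0.41 to 0.29). HMOX1 was at 6.14, 17.8 and 8.78 CPM with the methyl ether, against 5.55, 8.4 and 14.2 with DMSO (0.36, interval −0.34 to 1.06). Of the 26 genes called higher, 0 had groups that do not overlap, near the 0.872% of all tested genes. In 23 of them 1 well held over 75% of the sum. POLA1, the catalytic subunit of primase-polymerase alpha, named after its values were seen as the single S phase member called, was at 12.3, 8.26 and 62.4 CPM with the methyl ether, against 7.5, 10.1 and 12.7 with DMSO. Without methyl ether replicate 3 its log2 change was 0.07, and with the compared groups alone its call was lost (1.49, adjusted p = 0.636). The 95% interval lay within 1 log2 unit of no change for 19 of 33 ATF4 members, 21 of 25 unfolded protein response members and 20 of 25 S phase members, and the upper limit was below 1 for 26 of the 33 ATF4 members.

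The compounds were then set against each other at equal dose in 4 pairs, with p-values adjusted over all genes and all 4 pairs together. H-Osajin and Osajin, both at 10, differed in 1826 genes, 1039 higher with H-Osajin (6.66% of tested genes) and 787 lower (5.05%). In 25 of 33 ATF4 members H-Osajin was lower and in 0 higher (median log2 difference −1.87, H-Osajin minus Osajin), and the unfolded protein response gave 21 of 25 lower and 0 higher (median −1.62). DDIT3 was at 24.2, 22.8 and 25.1 CPM with H-Osajin, against 445, 502 and 579 with Osajin, a difference of −4.40 ± 0.28 (adjusted p = 1.89e-20). ATF3, a stress-induced repressor, was at 1.25, 1.14 and 2.25 CPM with H-Osajin, against 36.2, 38.8 and 34.3 with Osajin, and AKR1B1 at 93.2, 91.7 and 92.6 CPM with H-Osajin, against 313, 525 and 380 with Osajin. No H-Osajin well reached an Osajin well in these genes. Of all tested genes 29.6% were separate in this pair, and ATF3 was named from among them.

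Replication, chaperonin and tubulin genes went the other way, with 17 of 25 S phase members higher with H-Osajin than with Osajin and 0 lower (median 1.34). PCLAF, a PCNA-binding factor, was at 290, 267 and 277 CPM with H-Osajin, against 63.9, 53.7 and 39.8 with Osajin (difference 2.4 ± 0.20, adjusted p = 7.45e-15). SLC29A1 was at 142, 110 and 121 CPM with H-Osajin, against 13.7, 17.9 and 11.6 with Osajin (3.1 ± 0.23, adjusted p = 1.49e-17), and HSPE1 at 1660, 1390 and 1520 CPM with H-Osajin, against 385, 491 and 308 with Osajin (1.95 ± 0.18, adjusted p = 2.41e-13). MYCN was at 658, 292 and 739 CPM with H-Osajin and at 109, 158 and 91.2 with Osajin (2.24 ± 0.45, adjusted p = 0.000351). That call was lost with replicate number as a block (2.18, adjusted p = 0.0614). Adrenergic genes were higher with H-Osajin in 9 of 20 cases and tubulins in 5 of 11, with 0 lower in either list. Of 7 tested markers of other cell types, 3 were higher with H-Osajin and 0 lower, with 5 differences positive. Those higher were the fibroblast markers COL1A1, LUM and DCN. Osajin libraries were the smaller ones. The part of these markers or of library size in the differences was not tested.

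Isoosajin and the methyl ether, both at 20, differed in 479 genes, with 289 higher with Isoosajin (1.85%) and 190 lower (1.22%). Of 33 ATF4 members 26 were higher with Isoosajin and 0 lower (median 2.03), and 5 of 25 unfolded protein response members were higher (median 0.63). ASNS was at 422, 379 and 386 CPM with Isoosajin, against 46.4, 87.5 and 72.8 with the methyl ether (difference 2.52 ± 0.23, adjusted p = 8.47e-14). NUPR1 was at 74.5, 57.6 and 54.3 CPM with Isoosajin, against 1.68, 1.06 and 1.63 with the methyl ether, and SCRG1 at 50.8, 55.1 and 75.8 CPM with Isoosajin, against 4.75, 6.78 and 8.13 with the methyl ether. The wells of the pair are separate in each. Of all tested genes 16.7% were separate in this pair, and NUPR1 and SCRG1 were named from among them.

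HMOX1 differed by 2.31 ± 0.43 (Isoosajin minus methyl ether, adjusted p = 9.35e-05) and HSPA5 by 1.13 ± 0.22 (adjusted p = 0.000145). Both calls were lost with replicate number as a block (2.37, adjusted p = 0.0817 for HMOX1 and 1.15, adjusted p = 0.0686 for HSPA5). Immediate early genes were higher with Isoosajin in 8 of 21 cases, among them FOSL1 (1.66 ± 0.36, adjusted p = 0.000854) and JUNB, another AP-1 subunit (1.39 ± 0.33, adjusted p = 0.00332), though JUNB lost its call without Isoosajin replicate 3 (0.97, adjusted p = 0.0914) and with the compared groups alone (1.41, adjusted p = 0.0792). CDKN1A was higher by 1.82 ± 0.53 (adjusted p = 0.0209), and lost its call without methyl ether replicate 1 (adjusted p = 0.0547) or 2 (adjusted p = 0.1). The replicate block lost it as well (1.84, adjusted p = 0.0791). G2 and mitosis genes were lower in 5 of 26 cases, and CLU (−1.38 ± 0.18, adjusted p = 2.07e-08) was lower too. PCNA did not pass (−0.31, 95% interval −0.80 to 0.18, adjusted p = 0.57), nor did MYCN (0.83, interval −0.04 to 1.69, adjusted p = 0.304). MYCN passed without methyl ether replicate 2, the well at 692 CPM beside 264 and 224 (1.52, adjusted p = 0.0468), and with all wells kept but no low-count filter (0.83, adjusted p = 0.00635).

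**Figure D4:**
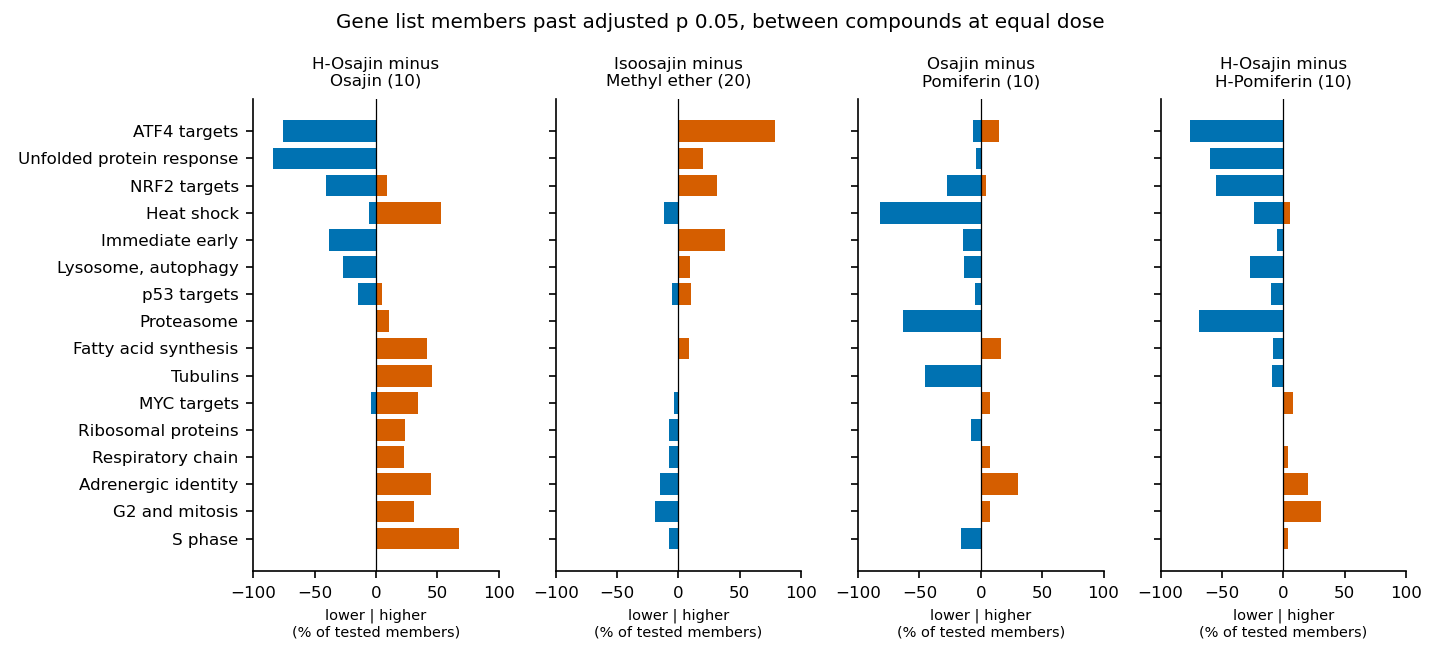
Share of tested members of 16 gene lists that differed between compounds at equal dose (adjusted p 0.05 over all genes and 4 pairs), higher in the first-named compound to the right and lower to the left. H-Osajin is lower than Osajin in 25 of 33 ATF4 members, and Osajin is lower than Pomiferin in 14 of 17 heat shock and 12 of 19 proteasome members.

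Osajin and Pomiferin, both at 10, which differ by the additional hydroxyl of Pomiferin, differed in 977 genes, 431 higher with Osajin (2.76%) and 546 lower (3.5%). Heat shock list members, most of them cytosolic chaperones, were lower with Osajin in 14 of 17 cases, with 0 higher and a median difference of −1.92 beside 0.03 for all genes. HSPA1A, inducible HSP70, was at 15.5, 26.7 and 45.9 CPM with Osajin, against 1570, 2160 and 1650 with Pomiferin (−5.95 ± 0.43, adjusted p = 7.61e-18). DNAJB1, the HSP40 co-chaperone, was at 46.1, 41.5 and 52.5 CPM with Osajin, against 975, 1540 and 1070 with Pomiferin (−4.68 ± 0.24, adjusted p = 2.01e-25), and HSPA8, constitutive HSC70, at 653, 572 and 437 CPM with Osajin, against 3740, 4870 and 4430 with Pomiferin. Of the Osajin wells, 2 of 3 lay in the HSPA1A range of the DMSO wells (14.7 to 31.7 CPM, median 20.4), and all Pomiferin wells lay above it. HSPA1A reads can be shared with the near-identical HSPA1B.

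Proteasome subunit genes were lower with Osajin than with Pomiferin in 12 of 19 cases and higher in 0 (median −0.90). PSMD14, the deubiquitinase of the proteasome lid, was at 172, 185 and 148 CPM with Osajin, against 482, 628 and 552 with Pomiferin (−1.72 ± 0.14, adjusted p = 3.4e-15). NRF2 genes were lower in 6 of 22 cases and higher in 1. HMOX1 was at 97.5, 102 and 162 CPM with Osajin, against 278, 356 and 336 with Pomiferin (−1.43 ± 0.40, adjusted p = 0.017), a call lost without Osajin replicate 1 (−1.30, adjusted p = 0.0901) or 2 (−1.32, adjusted p = 0.0812) or Pomiferin replicate 2 (−1.35, adjusted p = 0.0501). FTL, the ferritin light chain, was at 863, 863 and 708 CPM with Osajin, against 1360, 2180 and 1810 with Pomiferin (−1.14 ± 0.20, adjusted p = 3.72e-05).

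ATF4 list members were higher with Osajin in 5 of 33 cases and lower in 2 (median 0.24), and DDIT3 did not pass (−0.38, 95% interval −0.87 to 0.11, adjusted p = 0.44). INHBE was at 42.5, 36.6 and 39.2 CPM with Osajin, against 3.64, 5.91 and 7.48 with Pomiferin (2.78 ± 0.68, adjusted p = 0.0042), and PSAT1 at 463, 472 and 359 CPM with Osajin, against 223, 295 and 240 with Pomiferin (0.77 ± 0.17, adjusted p = 0.000799). SLC3A2, the heavy chain of amino acid exchangers, was lower with Osajin (−1.69 ± 0.44, adjusted p = 0.00748), and not past the threshold without Osajin replicate 1 (−1.39, adjusted p = 0.0852) or with the compared groups alone (−1.64, adjusted p = 0.0541). Of the unfolded protein response, HSPA5 was the single member past the threshold, at 973, 1010 and 1150 CPM with Osajin, against 1700, 3080 and 2630 with Pomiferin (−1.24 ± 0.22, adjusted p = 2.22e-05).

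Adrenergic genes differed as well between Osajin and Pomiferin. TH, tyrosine hydroxylase of catecholamine synthesis, was at 17.4, 12.6 and 8.29 CPM with Osajin, against 0.455, 3.8 and 2.76 with Pomiferin, a call lost with the compared groups alone (2.46, adjusted p = 0.0681), and adrenergic genes were higher in 6 of 20 cases and lower in 0. FAIM2, a neuronal inhibitor of Fas, was at 97.8, 104 and 103 CPM with Osajin, against 26.4, 14.8 and 9.84 with Pomiferin (2.59 ± 0.34, adjusted p = 3.31e-08). GREM1, a BMP antagonist, was at 5.91, 11 and 7.74 CPM with Osajin, against 94.2, 107 and 127 with Pomiferin (−3.73 ± 0.62, adjusted p = 9.72e-06). PCNA (−0.44, 95% interval −0.94 to 0.07, adjusted p = 0.375) and MYCN (0.37, interval −0.51 to 1.24, adjusted p = 0.751) did not pass.

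**Figure D5:**
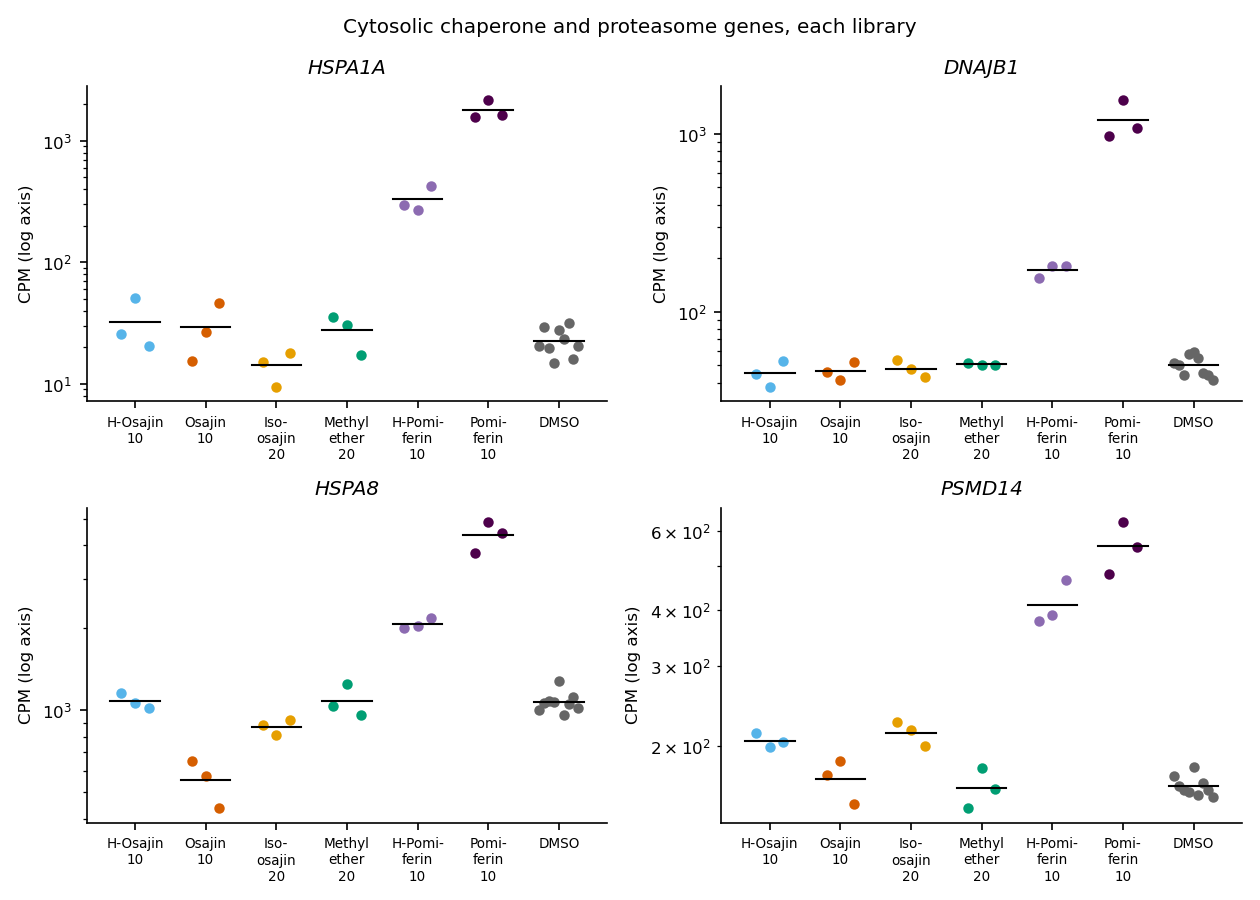
CPM (log axis) of HSPA1A, DNAJB1, HSPA8 and PSMD14 in every library, with group means as lines. For DNAJB1, H-Osajin (37.9 to 52.9) and Osajin wells (41.5 to 52.5) lie at DMSO level (41.4 to 59.8), H-Pomiferin wells stand at 155 to 182 and Pomiferin wells at 975 to 1540.

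H-Osajin and H-Pomiferin, both at 10, differed in 795 genes, 309 higher with H-Osajin (1.98%) and 486 lower (3.12%), and 527 without H-Osajin replicate 3. Of the ATF4 list, 25 of 33 members were lower with H-Osajin and 0 higher (median −1.67). DDIT3 was at 24.2, 22.8 and 25.1 CPM with H-Osajin, against 265, 245 and 328 with H-Pomiferin (−3.54 ± 0.27, adjusted p = 1.32e-16), and ASNS at 66.7, 96 and 60.8 CPM with H-Osajin, against 339, 331 and 384 with H-Pomiferin. The unfolded protein response was lower in 15 of 25 cases (median −1.06), NRF2 genes in 12 of 22 (median −0.85) and proteasome genes in 13 of 19 (median −0.70), with 0 higher in each. HMOX1 was at 12, 7.4 and 14.1 CPM with H-Osajin, against 126, 106 and 132 with H-Pomiferin (−3.44 ± 0.45, adjusted p = 2.29e-08). PSMC4, an ATPase of the proteasome base, differed by −1.17 ± 0.19 (adjusted p = 3.98e-06).

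Of the heat shock list, 4 of 17 members were lower with H-Osajin and 1 higher. HSPA1A was at 25.7, 50.4 and 20.3 CPM with H-Osajin, against 295, 272 and 424 with H-Pomiferin (−3.36 ± 0.38, adjusted p = 3.6e-10). Mitotic genes were higher with H-Osajin in 8 of 26 cases and lower in 0 (median 0.81), such as CDC20, the activator of the anaphase-promoting complex, at 36, 41 and 51 CPM with H-Osajin, against 16.5, 16.2 and 11.3 with H-Pomiferin (1.54 ± 0.33, adjusted p = 0.000627). CHGA was higher as well (1.07 ± 0.17, adjusted p = 2.53e-06). VEGFA was lower (−1.84 ± 0.31, adjusted p = 1.3e-05), and HILPDA, a lipid droplet protein, was higher (1.63 ± 0.43, adjusted p = 0.00927), a call lost without H-Pomiferin replicate 1 (1.50, adjusted p = 0.0546). PCNA (0.43, 95% interval −0.06 to 0.92, adjusted p = 0.366) and MYCN (0.57, interval −0.30 to 1.43, adjusted p = 0.548) did not pass.

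The difference between each H- compound and its namesake was itself compared for osajin and pomiferin, as H-Osajin minus Osajin, minus H-Pomiferin minus Pomiferin. It passed in 270 genes, 114 positive (0.731%) and 156 negative (1%), and in 159 without Osajin replicate 3. Of the ATF4 list 19 of 33 members were negative and 0 positive (median −2.10). DDIT3 differed by −4.40 log2 units for H-Osajin minus Osajin and by −1.25 for H-Pomiferin minus Pomiferin, a difference of −3.16 ± 0.36 (adjusted p = 1.73e-09). PSAT1 was lower with H-Osajin than with Osajin (−0.67) and higher with H-Pomiferin than with Pomiferin (1.35), a difference of −2.02 ± 0.23 (adjusted p = 3.51e-09). NUPR1 gave −4.66 for H-Osajin minus Osajin and 0.10 for H-Pomiferin minus Pomiferin, a difference of −4.76 ± 0.88 (adjusted p = 0.000307).

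Of the heat shock list 12 of 17 members were positive and 0 negative (median 1.49). HSPB1, a small heat shock protein, was at 483, 571 and 500 CPM with H-Osajin, 165, 211 and 164 with Osajin, 542, 578 and 507 with H-Pomiferin and 1100, 1350 and 1260 with Pomiferin. It was thus higher with the H- compound in the osajin pair and lower in the pomiferin pair (difference 2.71 ± 0.27, adjusted p = 7.69e-11). TAGLN behaved likewise, at 79.4, 102 and 98.6 CPM with H-Osajin, 10.7, 7.62 and 0 with Osajin, 55, 51.9 and 38 with H-Pomiferin and 80.1, 80.1 and 94.9 with Pomiferin (4.67 ± 0.61, adjusted p = 1.44e-07). HSPA5 (−0.76, 95% interval −1.36 to −0.16, adjusted p = 0.234) and PCNA (0.87, interval 0.16 to 1.57, adjusted p = 0.255) did not pass, with the intervals not adjusted for the number of genes. HMOX1 (−2.01 ± 0.58) had an adjusted p of 0.0505. With all wells kept it passed under each of the other settings tried, at −2.01 to −2.05, with adjusted p = 0.0416 with size factors, 0.0197 with the newer quasi-likelihood form, 0.00101 without the low-count filter, 0.0161 with DESeq2's Wald test, 0.0167 with the compared groups alone and 0.0203 with the replicate block.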

How the data were processed

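Counts of reads per gene were deposited by the authors as 1 table of whole numbers per experiment, made by PLATE-seq. The alignment program STAR and the genome build GRCh38 are named in the submitters' processing notes, with no version or strand setting, and no collapsing of molecular identifiers is stated in the sources used here. The third table, with 57728 genes and 96 libraries of 706208 to 5263249 counts, holds every osajin compound and is the one analysed here. Library columns were matched to samples by their labels, and no pair of replicates agreed within sampling noise.

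All 96 libraries entered 1 fit with edgeR 4.0.16 in R 4.3.3, with TMM scaling and 15596 genes kept by filterByExpr at a minimum count of 10. The quasi-likelihood test was two-sided, in its older form, and called genes at a Benjamini-Hochberg adjusted p under 0.05. Adjustment was over all genes of a contrast with DMSO, and over all genes and all 4 pairs together for compounds at equal dose. Intervals are 95% intervals of the fitted change. On simulated counts for the H-Osajin comparison (15350 genes, 2 sets) the older form recovered 54.5% of 2-fold and 90.2% of 4-fold changes with 3.21% false calls, and the newer form gave 15.9% false calls. For Isoosajin against the methyl ether the older form recovered 34.3% and 82.6% with 4.65% false calls, and the newer form gave 18.4%. In the simulation p-values were adjusted within this pair alone and not over the 4 pairs together. The shares therefore do not apply to its 479 reported calls, of which the count was 318 when adjusted within the pair. Changes were put only in genes with a mean of at least 10 CPM. The counts followed the fitted model, so these shares do not give the error rate of rises carried by 1 well. Alternatives were DESeq2 1.42.0, its size factors, the newer quasi-likelihood form, no low-count filter, the compared groups alone, a replicate block and leaving out each well with the dispersion trend of the full fit kept.

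Genes are named by a rule: the 8 largest rises and 8 largest falls with separate groups and a mean of at least 30 CPM, the 3 list members with the smallest p, and a fixed set of markers. The text gives the part of them that serves each comparison, and IGFBP4, POLA1 and list members named as exceptions were added after their values were seen. The members and the 28 gene lists were chosen with earlier results of these data known, and lists are described by counts and medians with no set test. Of 539 list genes 488 were tested. Promoter sequences are those of RefSeq on GRCh38.p14.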

Additional observations from a re-analysis of the deposited data

Results flagged for a closer look

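In the 9 DMSO wells, the highest and the lowest well of 96 genes were checked by Dixon's test at its 95% critical value. A highest well stood apart from the rest in 9 genes, and no lowest well did. Chance sets either end apart in about 1 in 20 groups. The 96 genes share the same wells and are not independent groups. These highest wells were at 295 CPM for COL1A1 (next highest 241), 375 for CSNK2B (289), 276 for GATA3 (214), 14.2 for HMOX1 (9.94), 0.657 for KLHDC7B (0.211), 205 for NOP56 (160), 9 for NUPR1 (1.97), 324 for PCNA (269) and 336 for PSAT1 (270).

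The difference between the H- compound and its namesake differed between the osajin and pomiferin pairs, tested as an interaction (edgeR quasi-likelihood test), in named genes of several groups. The log2 difference of differences was positive for the cytosolic chaperones HSPA1A (2.59), DNAJB1 (2.74), HSPB1 (2.71), HSPA8 (2.04), HSP90AA1 (2.71) and HSPH1 (2.36) and for TAGLN (4.67). It was negative for the stress response genes DDIT3 (−3.16), PSAT1 (−2.02), PHGDH (−1.37), INHBE (−5.86) and NUPR1 (−4.76), for AKR1B1 (−1.61), and for the endoplasmic reticulum genes XBP1 (−1.28, not past the threshold without the low-count filter, adjusted p = 0.128), PPP1R15A (−2.54) and HERPUD1 (−1.96). With the replicate block HSPA1A, AKR1B1 and XBP1 were not past the threshold (adjusted p = 0.0584, 0.0615 and 0.0573).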

How the results depend on the processing

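Of 4172 recomputed values of named genes (264 pairs of gene and contrast), 4020 kept direction and side of the threshold, 129 lost the threshold, 11 gained it and 12 changed sign, all 12 of them not past the threshold. The log2 changes that changed sign were those of PCNA with H-Osajin (0.00145 with the compared groups alone, 0.0418 with the replicate block, −0.133 to 0.0943 with 1 well left out), MYCN with H-Osajin (−0.185 to 0.371 with 1 well left out, and −0.00506, −0.000514 and −0.00452 without each of 3 DMSO wells), HSPA5 with the methyl ether (−0.171 to 0.0354 with 1 of its wells left out) and HMOX1 with the methyl ether (−0.21 to 0.641 with 1 of its wells left out). Counts of genes called moved by over 1.5 times as follows, and the cause was not tested. With the newer quasi-likelihood form H-Osajin gave 99 and the methyl ether 50, and without the low-count filter H-Osajin gave 334 and the methyl ether 274. With DESeq2's Wald test H-Osajin gave 92 and the interaction 426, while the methyl ether, at 34, stayed within 1.5 times, each in a fit of all libraries. With the compared groups alone (fewer libraries to estimate the spread) the counts were 18 for H-Osajin, 0 for the methyl ether (669 at an unadjusted p under 0.05), 919 for H-Osajin against Osajin, 177 for Isoosajin against the methyl ether, 311 for Osajin against Pomiferin, 414 for H-Osajin against H-Pomiferin and 123 for the interaction. Adjusted within each pair, Isoosajin against the methyl ether gave 318. Same-numbered wells had residual correlations of −0.282 to 0.0816 in the 4 pairs, and the main fit did not pair wells by number. Residuals centred within groups of 3 wells cannot decide whether the numbers pair the wells. With the replicate block the counts were 2830 for Osajin, 2 for H-Osajin, 172 for Isoosajin, 0 for the methyl ether (edgeR, 641 at an unadjusted p under 0.05), 316, 49, 97 and 132 for the 4 pairs in the same order, and 68 for the interaction. In it DMSO wells 1.1, 2.1 and 3.1 shared the blocks of wells 1, 2 and 3. DMSO wells 4, 5 and 6 had blocks without a treated well and so did not inform the changes against DMSO. Leaving out each well gave 2650 to 3654 genes for Osajin, 32 to 50 for H-Osajin (46 without DMSO replicate 2), 353 to 552 for Isoosajin, 19 to 35 for the methyl ether, 1302 to 1534, 350 to 412, 720 to 856 and 527 to 657 for the pairs in that order, and 159 to 235 for the interaction. HMOX1 passed the interaction test in 7 settings, the 6 with all wells kept and the 1 without Osajin replicate 1, with adjusted p = 0.00101 to 0.0499. The replicate block also lost named calls against DMSO, such as CSNK2A2 with Osajin and CDK1 and GATA3 with Isoosajin. With H-Osajin it lost ANXA5 (adjusted p = 0.367) and IGFBP4 (0.34), among others. Named calls of the pairs were lost too. Among these were FOSL1 (adjusted p = 0.0778) and CLU (0.0643) for Isoosajin against the methyl ether. Others were PSAT1 (0.0918) for Osajin against Pomiferin and CDC20 (0.0691) for H-Osajin against H-Pomiferin. With 3 wells a group and Osajin libraries of 1573316 to 2435952 counts, small changes of low genes were not detectable.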
